A study of Homo sapiens with 6 samples.

Results

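The heat shock protein genes described here are 10 named genes of the molecular chaperone system: HSPA1A, HSPA1B, HSPA6, HSPA7, HSPA8, HSPH1, DNAJB1, HSP90AA1, HSPB1 and HSPD1. They were taken by gene symbol from a fixed list, were covered by 19 of 69004 transcripts in each table, and made up 10 of 27744 named genes. The list was drawn up with results of these libraries known, for a comparison of their summed reads between the PLDLS, PLASS and EV libraries. Differences of the members between those groups are therefore given as a description, as fitted log2 values with their SE. How many members passed a threshold there is set beside the share of all genes and supports nothing. All 10 passed the filter on low counts.

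RNA was measured in 6 poly-A selected, non-stranded libraries of MUTZ3, an acute myelomonocytic leukaemia line from bone marrow that carries inv(3), a rearrangement known for driving the transcription factor EVI1. Every culture had been grown in αMEM with 20% FCS and 20% medium conditioned by 5637 cells and was transduced with a retroviral vector. The time point was 72 h in all groups. The 2 PLDLS libraries carried p50MX-3xFLAG-3xNLS-4xPLDLS-Zeo, whose peptide blocks the contact of EVI1 with the corepressor CTBP according to the submitters. The 2 PLASS libraries carried p50MX-3xFLAG-3xNLS-4xPLASS-Zeo, a peptide without that activity. The 2 empty vector (EV) libraries differed from each other, since EV replicate 1 carried p50MX-3xFLAG and EV replicate 2 carried p50MX-Zeo. All libraries come from 1 cell line. Whether the replicates were independent cultures is not labelled, so a p-value here weighs a difference against library-to-library spread only, part of which may be technical. Estimated reads per library ranged from 5582078 in PLDLS replicate 2 to 35800826 in EV replicate 1, and replicate 2 was the shallower library in every group. All 10 markers of the myelomonocytic list, which includes the progenitor genes CD34 and KIT, reached at least 1 TPM in all 6 libraries. Their summed level was 1107 to 1637 TPM. The largest part was CD34, at 515 to 904 TPM, and the lowest marker was CD14, at 1.29 to 4.13 TPM. Of the markers of other cell types, summed T and NK cell genes reached 26.6 to 31.9 TPM in the PLDLS libraries and 16.1 to 18.02 TPM in the others. Most of that sum was NKG7, at 22.6 to 26.2 TPM in PLDLS and 12.8 to 15.7 TPM in the others, and 1 of the 6 T and NK cell markers reached 1 TPM in all libraries. The other T and NK cell markers went different ways. CD3E, a defining T cell gene, was at 0.312 to 1.31 TPM in PLDLS and 1.06 to 2.41 TPM in the others. CD2 was at 1.02 and 2.04 TPM in PLDLS and 0 to 0.528 TPM in the others. CD3G overlapped, at 0.821 and 1.64 TPM in PLDLS and 0.356 to 1.14 TPM in the others. In PLDLS replicate 1 CD3D was at 2.31 TPM and GNLY at 0.215 TPM, and both were at 0 in every other library. Bladder epithelium genes summed to 6.75 to 7.42 TPM in the PLDLS libraries and 12.3 to 16.5 TPM in the others. Of these 7 genes, 2 reached 1 TPM in all libraries, KRT7 and KRT17. KRT17 was at 3.37 and 3.74 TPM in PLDLS and 7.56 to 11.2 TPM in the others. KRT5, KRT19, EPCAM, CDH1 and UPK2 reached at most 0.413 TPM in any library. B cell genes summed to 11.5 to 22.4 TPM with MS4A1 at 0, and erythroid genes to at most 0.972 TPM with HBB and HBA1 at 0. The part of these marker levels in the results below was not tested.

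Heat shock proteins are molecular chaperones that bind unfolded protein and help it to fold, to be refolded after stress or to be degraded. The HSP70 proteins are the central machine, DNAJ (HSP40) proteins deliver substrates and stimulate their ATPase, HSPH1 (HSP105, of the HSP110 family) exchanges their nucleotide, and HSP90 takes over clients such as kinases and hormone receptors. Under heat or proteotoxic stress the transcription factor HSF1 forms trimers on heat shock elements, inverted repeats of the unit nGAAn, and induces HSPA1A, HSPA1B, HSPA6, DNAJB1, HSPH1, HSP90AA1 and HSPB1, while HSPA8 is made in nearly all cells without stress.

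The members spanned a wide range of levels. On the TPM scale, which corrects for transcript length, the mean over the 6 libraries was 2789 TPM for HSPA8 (range 2567 to 3030), the constitutive HSP70 of the cytosol, and 1239 TPM for HSP90AA1 (1167 to 1310), the inducible HSP90 of the cytosol. HSPD1, the mitochondrial chaperonin HSP60, followed at 756 TPM (673 to 854) and HSPB1, the small heat shock protein HSP27, at 277 TPM (193 to 360). The ranges of these 4 genes did not overlap over the 6 libraries. HSPH1 came next at 143 TPM (98.2 to 185), then DNAJB1, the stress-inducible HSP40, at 87.7 TPM (68.5 to 106) and HSPA1B, an inducible HSP70, at 63.3 TPM (34.5 to 94.2). The range of HSPH1 overlapped that of DNAJB1, and the range of DNAJB1 that of HSPA1B. Within each library, though, HSPH1 was above DNAJB1 and DNAJB1 above HSPA1B. HSPA7, HSPA1A and HSPA6 were low, at 7.63 TPM (2.33 to 21.3), 3.24 TPM (0.407 to 5.14) and 0.775 TPM (0.0762 to 1.42), and each overlapped the next. In all, the members held 0.486% to 0.561% of the TPM of a library, and 1 transcript carried at least 98.4% of the reads of each member other than HSPH1, where the leading one of 5 carried 92.3% to 96.0%.

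The low members are copies of each other, which limits what single values mean. HSPA1A and HSPA1B lie on chromosome 6 (GRCh38, 31815543 to 31817942 and 31827738 to 31830254) and encode the same inducible HSP70 chain. Their transcript models aligned at 91.1% identity, and 74.3% of the 31-base words of HSPA1A also occurred in HSPA1B. HSPA1A took 1.15% to 6.38% of the reads of the pair, so the split of shared reads between them is uncertain. HSPA6, the strictly inducible HSP70B', and HSPA7, annotated as a transcribed pseudogene, lie on chromosome 1 (161524540 to 161526894 and 161606172 to 161608550). The HSPA7 model aligned to HSPA6 at 98.2% identity, 69.9% of its 31-base words occurred there, and HSPA6 took 2.97% to 17.8% of the reads of that pair. The transcript models compared in this paragraph are from GENCODE, while reads were assigned to RefSeq transcripts. For HSPA7 the model had 1927 bases and the RefSeq transcript 2493, so the share of common words may differ for the sequence that was counted. Beyond these pairs, sequence shared with any other gene was 53.4% of such words for HSPD1, 46.6% for HSPA8, 37.7% for HSP90AA1, 19.1% for HSPB1, 7.79% for DNAJB1 and 0.368% for HSPH1. The leading partner of HSPD1, HSPA8, HSP90AA1, HSPB1 and DNAJB1 was a processed copy (HSPD1P1, HSPA8P1, HSP90AA2P, HSPB1P1 and DNAJB1P1).

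The start regions of 5 members are shown because they carry the sequence by which the family is known, or lack it. RefSeq windows (GRCh38.p14) from 250 bases before to 50 after the start were found for 9 of the 10 members; none was used for HSPA7. Capitals mark matches to a pair of facing heat shock units, GAANNTTC or TTCNNGAA. Each of these reads the same on both strands, and overlapping matches were joined into 1 run.
HSPA1A (chr6:31815293-31815592, plus strand): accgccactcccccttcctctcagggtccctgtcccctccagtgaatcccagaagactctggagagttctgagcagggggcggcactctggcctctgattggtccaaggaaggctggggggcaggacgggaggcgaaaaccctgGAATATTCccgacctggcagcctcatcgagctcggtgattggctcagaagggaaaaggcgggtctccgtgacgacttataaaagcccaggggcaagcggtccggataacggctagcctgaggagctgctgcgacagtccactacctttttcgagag
HSPA1B (chr6:31827488-31827787, plus strand): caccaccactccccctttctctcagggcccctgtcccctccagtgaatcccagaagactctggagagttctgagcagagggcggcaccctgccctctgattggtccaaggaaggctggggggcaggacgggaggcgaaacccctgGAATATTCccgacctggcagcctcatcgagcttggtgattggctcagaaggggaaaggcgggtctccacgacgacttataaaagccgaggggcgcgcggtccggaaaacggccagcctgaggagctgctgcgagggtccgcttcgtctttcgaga
HSPA6 (chr1:161524290-161524589, plus strand): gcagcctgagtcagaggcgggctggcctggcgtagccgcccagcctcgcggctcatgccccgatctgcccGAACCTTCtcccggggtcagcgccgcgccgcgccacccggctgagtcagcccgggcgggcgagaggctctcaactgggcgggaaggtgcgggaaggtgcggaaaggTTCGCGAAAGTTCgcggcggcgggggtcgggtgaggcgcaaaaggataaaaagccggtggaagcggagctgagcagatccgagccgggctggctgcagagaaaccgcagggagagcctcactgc
HSP90AA1 (chr14:102086995-102087294, minus strand): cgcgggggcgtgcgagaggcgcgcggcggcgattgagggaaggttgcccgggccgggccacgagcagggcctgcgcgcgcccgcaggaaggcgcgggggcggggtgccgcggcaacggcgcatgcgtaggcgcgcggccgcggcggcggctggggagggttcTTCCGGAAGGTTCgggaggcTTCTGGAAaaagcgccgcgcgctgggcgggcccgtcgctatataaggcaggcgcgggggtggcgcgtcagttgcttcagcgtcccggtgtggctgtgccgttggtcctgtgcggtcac
HSPH1 (chr13:31162339-31162638, minus strand): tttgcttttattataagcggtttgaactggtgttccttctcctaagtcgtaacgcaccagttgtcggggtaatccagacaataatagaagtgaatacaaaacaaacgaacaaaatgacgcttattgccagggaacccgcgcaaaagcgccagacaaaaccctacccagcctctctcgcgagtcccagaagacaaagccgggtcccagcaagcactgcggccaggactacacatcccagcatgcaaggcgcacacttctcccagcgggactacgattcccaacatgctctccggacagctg
A pair of facing units was found in 8 of the 9 windows, all but that of HSPH1, against 13.5% of 35116 windows of all genes. A run of 3 alternating units, either motif extended by a further facing unit at the same spacing of 2 bases, was found in the windows of HSPA6, HSPA8, HSP90AA1 and HSPD1 and in 0.490% of all windows. The HSPA1A and HSPA1B windows were 92.0% identical, held the same GAATATTC and were the only ones of the 9 with TATAAA on the sense strand, found in 7.33% of all windows. A match is a description of the letters and not a measured binding site, and its absence at HSPH1 says only that these letters are not in this window.

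HSPA7 was the member that stood apart between the groups. Its level in CPM, the read count scaled to the size of the library with TMM factors, was 23.4 and 12.6 in PLDLS replicates 1 and 2, 4.95 and 2.76 in PLASS, and 5.16 and 3.15 in EV. Both PLDLS libraries lay above the 4 others, and in each group replicate 1 was the higher library. The means were 18.02 ± 7.64 CPM in PLDLS, 3.85 ± 1.55 CPM in PLASS and 4.16 ± 1.42 CPM in EV (SD, n = 2 each). Within a replicate number the PLDLS library was 4.73-fold and 4.58-fold above PLASS and 4.54-fold and 4.01-fold above EV. These values rested on 391 and 68.3 estimated reads in PLDLS, 103 and 34.0 in PLASS and 196 and 57.4 in EV. In bulk RNA a change in the share of cells that express a gene and a change in RNA per cell cannot be told apart.

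**Figure D1:**
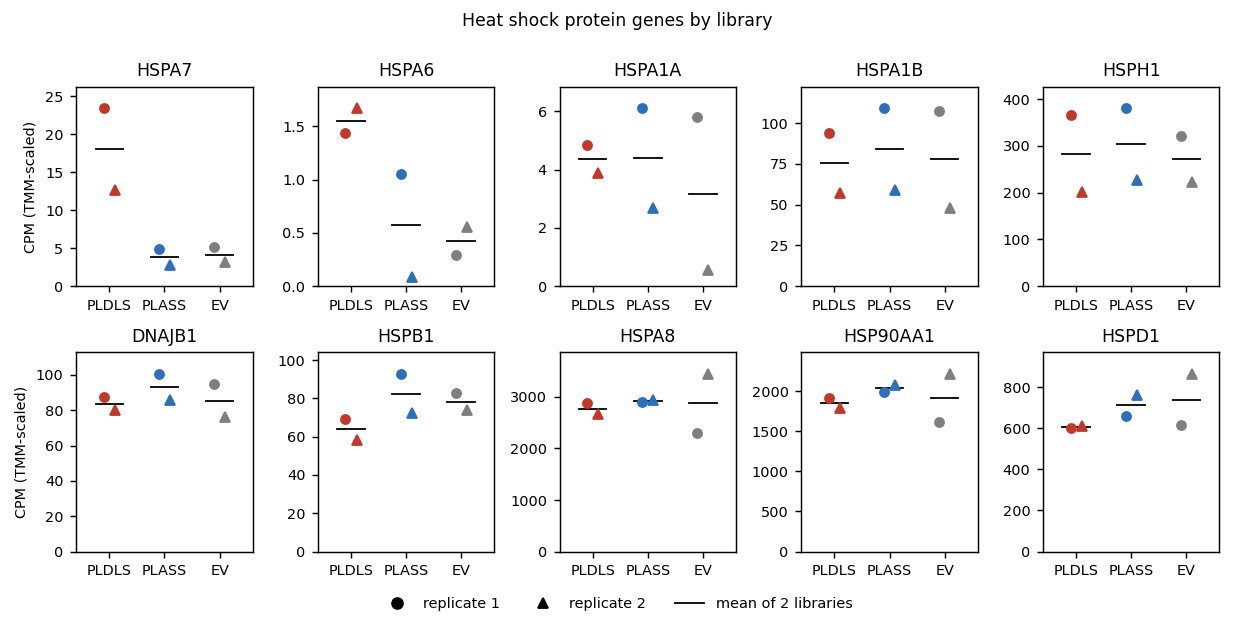
Level of each heat shock protein gene in CPM (TMM-scaled, linear axes from 0) in the 2 PLDLS, 2 PLASS and 2 EV libraries, with circles for replicate 1, triangles for replicate 2 and a line at the mean of the 2. HSPA7 reaches 12.6 to 23.4 CPM in PLDLS and at most 5.16 CPM in the other libraries, and in HSPA1B and HSPH1 every triangle lies below every circle.

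The fitted log2 difference of HSPA7 was 2.22 ± 0.20 (SE) for PLDLS against PLASS and 2.11 ± 0.20 for PLDLS against EV with the replicate number as a block, and 2.22 ± 0.45 and 2.12 ± 0.44 without it. PLASS against EV gave -0.11 ± 0.21 with the block. At an adjusted p under 0.05 in edgeR with the block, 1 of 10 members, HSPA7, counted as higher in each PLDLS comparison and 0 as lower, where 1.52% of the 14634 tested genes were higher in PLDLS than in PLASS and 0.513% lower (2.03% in all), and 3.23% were higher than in EV and 0.998% lower (4.22% in all). Without the block, in edgeR with all 6 libraries, 0 of 10 members were called, and 0% and 0.0137% of tested genes. Over the alternatives HSPA7 was called in 2 of 16 fits without the block in each PLDLS comparison. In some alternative fits with the block other members joined the count: HSPA1A in both comparisons with EV without EV replicate 1, HSPA6 in PLDLS against EV without PLASS replicate 2 or with the compared groups alone, and HSPB1 in PLDLS against PLASS with the compared groups alone. Since the members were chosen on these contrasts, nothing is read from the counts. Both comparisons share the PLDLS libraries.

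HSPA6, the coding copy of HSPA7, was measured at 1.44 and 1.67 CPM in PLDLS, 1.06 and 0.0811 CPM in PLASS and 0.290 and 0.553 CPM in EV. The PLDLS libraries were again the highest, but PLASS replicate 1 came close to them. The values stood on 24.4 and 8.72 estimated reads in PLDLS, 22.3 and 1.04 in PLASS and 11.0 and 9.64 in EV, so counting error alone is large. The fitted log2 difference with the block was 1.21 ± 0.73 for PLDLS against PLASS and 1.92 ± 0.75 for PLDLS against EV. Without PLASS replicate 1 the first became 4.46, on the single estimated read of PLASS replicate 2. Without EV replicate 1 the second became 0.75. With HSPA6 and HSPA7 summed, so that the split of shared reads no longer matters, the level was 24.9 and 14.3 CPM in PLDLS, 6.01 and 2.84 in PLASS and 5.45 and 3.70 in EV. The sum gave a log2 difference of 2.15 ± 0.21 for PLDLS against PLASS and 2.08 ± 0.21 against EV with the block. HSPA7 and HSPA6 were the members with both PLDLS libraries above all 4 others, a pattern of 9.98% of tested genes.

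The position of the HSPA6 and HSPA7 genes is given with their neighbours, which were chosen after their values were seen. HSPA6 starts 492 bases after the end of FCGR2A, HSPA7 begins 79278 bases further on, and FCGR2B starts 38693 bases after HSPA7. FCGR2A and FCGR2B encode an activating and an inhibitory Fc receptor for IgG on myeloid cells. Within 100000 bases of the 2 heat shock genes, 13 genes other than tRNAs are annotated, 8 are in the tables, and 4 were tested: FCGR2A, HSPA6, HSPA7 and FCGR2B. FCGR2A stood at 38.3 and 28.9 CPM in PLDLS, 8.32 and 9.33 in PLASS and 8.79 and 8.07 in EV. FCGR2B stood at 33.1 and 25.8 CPM in PLDLS, 11.7 and 7.95 in PLASS and 10.03 and 10.7 in EV. For both receptors the PLDLS libraries lay above the 4 others without overlap. The fitted log2 difference between PLDLS and PLASS with the block was 1.94 ± 0.20 for FCGR2A and 1.58 ± 0.21 for FCGR2B, given without a test because of how they were chosen. The genes FCGR3A and FCGR3B between them, which are closely related receptors, had at most 0.0599 CPM and 0 reads. With non-stranded libraries, reads that run past the end of one gene into another on either strand cannot be told apart from the neighbour's own.

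The inducible HSP70 genes HSPA1A and HSPA1B did not follow HSPA7. HSPA1B was at 94.1 and 56.8 CPM in PLDLS, 109 and 58.7 CPM in PLASS and 107 and 48.0 CPM in EV. The groups overlapped fully, and replicate 1 was high and replicate 2 low in each of them. The log2 difference with the block was -0.14 ± 0.15 for PLDLS against PLASS and 0.01 ± 0.15 for PLDLS against EV. HSPA1A was at 4.85 and 3.90 CPM in PLDLS, 6.11 and 2.68 CPM in PLASS and 5.79 and 0.553 CPM in EV. The single low library, EV replicate 2, rested on 10.1 estimated reads, and without EV replicate 1 the log2 difference of HSPA1A between PLDLS and EV moved from 0.58 ± 0.54 to 2.45 and that between PLASS and EV from 0.63 ± 0.50 to 2.49 with the block. Without EV replicate 2 the first was -0.12. Summed, the HSPA1A and HSPA1B pair differed by -0.12 ± 0.15 between PLDLS and PLASS and by 0.05 ± 0.15 between PLDLS and EV with the block.

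HSPH1 and DNAJB1, the co-chaperones of HSP70, had groups that overlapped. HSPH1 was at 366 and 202 CPM in PLDLS, 381 and 227 CPM in PLASS and 322 and 222 CPM in EV, with a log2 difference of -0.11 ± 0.13 between PLDLS and PLASS. DNAJB1 was at 87.2 and 80.2 CPM in PLDLS, 101 and 86.1 CPM in PLASS and 94.6 and 76.2 CPM in EV, with a difference of -0.16 ± 0.13.

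The abundant chaperones HSPA8 and HSP90AA1 were nearly level in PLDLS and PLASS and spread widest in EV. HSPA8 was at 2874 and 2665 CPM in PLDLS, 2898 and 2939 CPM in PLASS and 2297 and 3448 CPM in EV. HSP90AA1 was at 1917 and 1786 CPM in PLDLS, 1992 and 2076 CPM in PLASS and 1616 and 2216 CPM in EV. For both genes EV replicate 1 was the lowest and EV replicate 2 the highest of the 6 libraries in CPM. These are the libraries that carry different vectors. In TPM this order held for HSPA8 but not for HSP90AA1. HSP90AA1 was at 1176 and 1271 TPM in EV, lowest in PLDLS replicate 2 (1167 TPM) and highest in PLASS replicate 2 (1310 TPM). The log2 differences between PLDLS and PLASS were -0.07 ± 0.19 for HSPA8 and -0.13 ± 0.17 for HSP90AA1. Against EV the sign of both depended on the EV library: for HSPA8 the difference of PLDLS from EV was -0.34 without EV replicate 1 and 0.27 without EV replicate 2 with the block, and for HSP90AA1 -0.27 and 0.19.

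In CPM, HSPB1 and HSPD1 were the members with both PLDLS libraries below all 4 others, a pattern of 8.04% of tested genes. In TPM this held for HSPD1 but not for HSPB1. The TPM of HSPB1 was 267 and 193 in PLDLS, 360 and 257 in PLASS and 335 and 252 in EV. HSPB1 was at 69.4 and 58.3 CPM in PLDLS, 92.8 and 72.2 CPM in PLASS and 82.8 and 73.8 CPM in EV. HSPD1 was at 604 and 609 CPM in PLDLS, 660 and 764 CPM in PLASS and 615 and 866 CPM in EV. The gap was narrow in HSPD1, where EV replicate 1 lay just above the higher PLDLS library. The log2 differences were -0.37 ± 0.13 for HSPB1 and -0.22 ± 0.15 for HSPD1 against PLASS, and -0.30 ± 0.13 and -0.27 ± 0.15 against EV.

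Across the 10 members the median log2 difference with the block was -0.12 for PLDLS against PLASS, -0.01 for PLDLS against EV and 0.11 for PLASS against EV, beside -0.01, -0.02 and -0.0031 over all tested genes. In PLASS against EV 0 of 10 members counted as past the edgeR threshold in the fits of all 6 libraries, where 0.0137% of tested genes were called with the block and 0 without it.

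**Figure D2:**
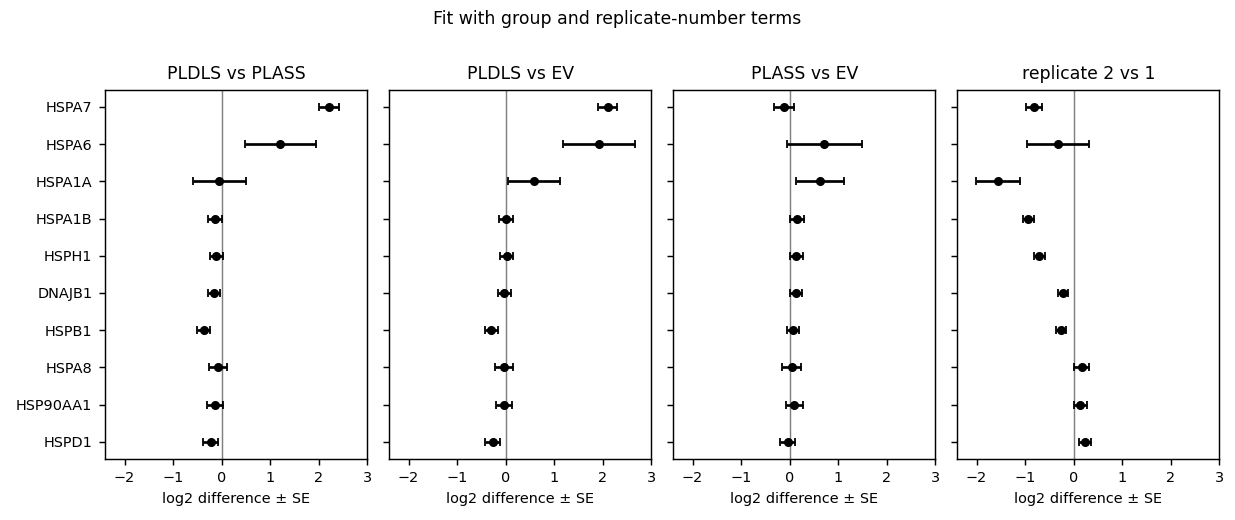
Fitted log2 difference with its SE for each of the 10 genes in 4 comparisons, from the fit with group and replicate-number terms over 6 libraries. HSPA7 lies at 2.22 and 2.11 in the PLDLS comparisons, the other members other than HSPA6 and HSPA1A lie within 0.37 of 0 in all group comparisons, and HSPA1A, HSPA1B, HSPH1 and HSPA7 lie lowest in replicate 2 against 1.

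The libraries also differ by replicate number, a contrast that the rule for the members does not name, and this was tested. The members were still chosen with results of these libraries known, so its adjusted p-values are not free of that choice. With terms for the group, 4 of 10 members were lower in replicate 2 than in replicate 1 and 0 were higher, beside 9.6% lower and 7.83% higher (17.4% in all) of the 14634 tested genes. By the quasi-likelihood test of edgeR with Benjamini-Hochberg adjustment, HSPA1B fell by 0.93 ± 0.12 on the log2 scale (adjusted p = 0.00344) and HSPH1 fell by 0.71 ± 0.11 (adjusted p = 0.0065), each lower in 3 of 3 groups. HSPA7 fell by 0.82 ± 0.17 (adjusted p = 0.0156) and HSPA1A fell by 1.56 ± 0.45 (adjusted p = 0.0464), again in 3 of 3 groups. Replicate 2 was the shallower library in every group, and in EV the replicates carry different vectors. The part of depth was not tested, while without the EV libraries HSPA1B still fell by 0.82 ± 0.11 (adjusted p = 0.000138) and HSPH1 by 0.81 ± 0.10 (adjusted p = 0.000106).

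HSPA1B and HSPH1 were past the threshold in 12 of 12 fits of this contrast, including each with 1 library left out. The HSPA1A call was lost without EV replicate 1 (adjusted p = 0.0649), without EV replicate 2 (adjusted p = 0.0647) and without both (adjusted p = 0.0544), where edgeR put the fall at a log2 of -0.82 to -0.81. The HSPA7 call was lost in edgeR without PLDLS replicate 1 (adjusted p = 0.0732), PLDLS replicate 2 (adjusted p = 0.0675), PLASS replicate 1 (adjusted p = 0.0557) or PLASS replicate 2 (adjusted p = 0.0533), at a log2 of -0.81 to -0.75. Summed to avoid the split of shared reads, HSPA1A with HSPA1B fell by 0.95 ± 0.13 (edgeR, adjusted p = 0.00368) and HSPA6 with HSPA7 fell by 0.79 ± 0.17 (edgeR, adjusted p = 0.0201).

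The remaining members did not pass this test. DNAJB1 and HSPB1 were lower in replicate 2 in 3 of 3 groups, at a log2 of -0.22 ± 0.10 (edgeR, adjusted p = 0.153) and -0.26 ± 0.11 (edgeR, adjusted p = 0.113). HSPD1 was higher in 3 of 3 groups at 0.24 ± 0.12 (edgeR, adjusted p = 0.194). HSPA8, HSP90AA1 and HSPA6 had mixed signs over the groups, with log2 values of 0.17 ± 0.16, 0.14 ± 0.14 and -0.32 ± 0.64. Over all tested genes, 30.8% were lower in replicate 2 in all 3 groups and 27.1% higher, beside 6 and 1 of the 10 members. The median of the members was -0.29 and that of all tested genes -0.02.

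Over the 6 libraries the members' levels moved in blocks, given here as a description over 6 points that share group and replicate number. Pearson's r of log2 CPM was 0.93 between HSPA1B and HSPH1, 0.91 between HSPA1B and DNAJB1 and 0.82 between HSPH1 and DNAJB1. HSPA8 and HSP90AA1 had an r of 0.97, and HSPD1 had 0.79 with HSPA8 and 0.82 with HSP90AA1. HSPA7 had 0.77 with HSPA6 and 0.30 with HSPA1B. Among 10581 genes of at least 5 CPM on average, those most like HSPA7 were EPHA1, an ephrin receptor (r = 0.997), SYTL4, a vesicle docking protein (0.990), and MTFR1L (0.989). EPHA1 was at 30.1 and 19.9 CPM in PLDLS and at 7.95 to 11.7 CPM in the other libraries. Most like HSPA1A were DCAF7 (0.996), CARD9, a signalling adaptor of myeloid cells (0.993), and PTGS1, the cyclooxygenase COX-1 (0.991), which were lowest in EV replicate 2 as HSPA1A was. Most like HSP90AA1 were MIA2 (0.980), IMPA1 (0.979) and KTN1 (0.977), which were lowest in EV replicate 1 and highest in EV replicate 2 in CPM. In TPM only IMPA1 kept that order. From EV replicate 1 to EV replicate 2, MIA2 went from 37.9 to 34.6 TPM and KTN1 from 156 to 151 TPM.

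The other genes of the chaperone system were taken from 10 lists with 96 genes, of which 82 were tested. In the 3 group comparisons edgeR called 0 of them with or without the block, and so did DESeq2 and limma-voom, with all 6 libraries. Without EV replicate 1 and with the block, edgeR called some of them in both comparisons with EV, HSF2 among them in PLDLS against EV. That fit keeps 1 EV library, and calls over all tested genes rose there too. At an unadjusted p under 0.05 edgeR with the block had 2 of the 82 in PLDLS against PLASS, 3 in PLDLS against EV and 2 in PLASS against EV. In the same order 1686, 2327 and 488 of the 14634 tested genes were under it. Without the block 0 of the 82 were under it in each, beside 722, 1047 and 103 of all tested genes. In PLDLS against PLASS the log2 differences of the 82 with the block ran from -0.35 to 0.38 with a median of -0.06. HSF1, the master factor of the heat shock response, was at 56.8 to 74.6 CPM over the 6 libraries, with a difference of 0.13 ± 0.15 between PLDLS and PLASS. HSF2, a related factor, was at 21.4 to 27.8 CPM in PLDLS and PLASS and at 27.2 and 46.0 CPM in EV, where PLDLS against EV gave -0.61 ± 0.19 (edgeR with the block, adjusted p = 0.131). Of the 18 tested heat-inducible targets of HSF1, 0 were called in PLDLS against PLASS, 1 had an unadjusted p under 0.05 in edgeR with the block, and 10 had a log2 below 0. None of the 9 other small heat shock proteins on the list was tested: CRYAA, CRYAB, HSPB2 and HSPB3 had 0 reads in all 6 libraries, HSPB6, HSPB7, HSPB8 and HSPB9 reached at most 0.557 CPM, and HSPB11 was not matched by symbol.

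Between replicate numbers these genes went both ways, with 11 higher and 12 lower in replicate 2 of the 82 tested, beside 7.83% higher and 9.6% lower of all tested genes. Without any 1 PLDLS or PLASS library these counts were 3 to 4 and 4, and without an EV library 8 to 9 and 16 to 17. Among all tested genes 1146 were higher and 1405 lower with all 6 libraries. The first set of fits had 420 to 616 higher and 470 to 861 lower. The second set had 1497 to 1591 higher and 1321 to 1481 lower. A smaller count in the first set is therefore not particular to the chaperone genes. GRPEL2, HSF4, HYOU1 and IER5 were the 4 of these 23 genes called in all 12 fits, and each of the other 19 lost its call on leaving out at least 1 PLDLS or PLASS library. Of the 13 endoplasmic reticulum chaperones, 9 were lower and 0 higher, with 12 of 13 below 0 and a median log2 of -0.53 beside -0.02 over all tested genes. HYOU1, the HSP110 of that compartment, fell by 0.74 ± 0.13 on the log2 scale (edgeR, adjusted p = 0.00974). PDIA4, PDIA3 and PDIA6, disulphide isomerases, fell by 0.57, 0.56 and 0.56. CALR, a lectin chaperone, fell by 0.57 and SDF2L1 by 0.53, and HSP90B1, the HSP90 of the compartment, fell by 0.63 ± 0.17 (edgeR, adjusted p = 0.0357). The count of 9 fell to 1 without PLDLS replicate 1 or replicate 2 and to 3 without PLASS replicate 1 or replicate 2. In those fits the count of lower genes among all tested fell as well.

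Of the 11 mitochondrial chaperones and proteases, 5 were higher and 0 lower, with 2 of 11 below 0 and a median log2 of 0.37. GRPEL2, a nucleotide exchange factor of mitochondrial HSP70, was at 51.8, 38.2 and 37.8 CPM in replicate 1 of PLDLS, PLASS and EV and at 89.8, 96.4 and 67.4 CPM in replicate 2, a log2 difference of 0.99 ± 0.14 (edgeR, adjusted p = 0.00411). TRAP1, the mitochondrial HSP90, rose by 0.52 ± 0.10, the protease subunit CLPP by 0.58 ± 0.14 and YME1L1, an inner membrane protease, by 0.37 ± 0.10. HSPE1, the HSP10 partner of HSPD1, rose by 0.74 ± 0.21 (edgeR, adjusted p = 0.0445), while HSPD1 itself did not pass. Without PLDLS replicate 1 or replicate 2, or without PLASS replicate 1, the count of 5 fell to 2, and without PLASS replicate 2, EV replicate 1 or EV replicate 2 to 3. Of the 9 chaperonins, 3 were higher (HSPE1, CCT7 and CCT5) and 0 lower. All 9 had an unadjusted p under 0.05 in edgeR, beside 5377 of the 14634 tested genes. The count of 3 fell to 0 without either PLDLS library, where 7 to 8 had an unadjusted p under 0.05 in edgeR, and to 1 without any other single library.

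The heat-inducible HSF1 targets were split between replicate numbers, with 3 of 18 higher and 2 lower. IER5, a regulator of HSF1, rose by 0.73 ± 0.11 (edgeR, adjusted p = 0.00663), beside HSPE1. DNAJB4, an HSP40, fell by 0.81 ± 0.16 (edgeR, adjusted p = 0.0152) and CHORDC1, an HSP90 co-chaperone, by 0.49 ± 0.14. Of the co-chaperones of HSP70 and HSP90, HSPBP1 and STUB1 rose by 0.53 and 0.44 and CHORDC1 fell, out of 18. HSF4, a factor of the HSF family, fell by 1.14 ± 0.17 (edgeR, adjusted p = 0.00591), from 9.11 to 10.8 CPM in replicate 1 to 4.38 to 4.82 CPM in replicate 2, and HSF1 stood at 0.06 ± 0.13 (edgeR, adjusted p = 0.734).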

How the data were processed

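The deposited tables hold, per RefSeq transcript, the estimated count of reads assigned by Salmon, which per the file headers is neither normalized nor whole. TPM values, also deposited, sum to 1000000 per library and were used only for levels. The deposited effective length, another column of these files per the file headers, served as an offset in an alternative fit. Per the submitters' processing notes the tools were bcl2fastq 1.8.4 and Salmon 0.3.1 and the build hg38. The read layout and the release of the annotation are not stated there.

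Transcripts were named from RefSeq (GRCh38.p14) and GENCODE tables with copy suffixes dropped, which named 99.4% of them. HSPA1A and HSPA1B were present only as suffixed copies. Reads with no gene name (0.0670% to 0.0893% of a library) were left out. Gene sums were rounded and fitted in edgeR 4.0.16 (quasi-likelihood test, TMM, filterByExpr, Benjamini-Hochberg) over all 6 libraries, with no block as the first choice. SE is the log2 difference over the root of F. Both fits are given because replicate numbers appear to pair the libraries: the experiment number in each table's name is the same as its replicate number, and deviations of same-numbered libraries correlated at 0.707, 0.536 and 0.597 over 9322 genes. No label says what that number marks. Replicates of a group differed beyond sampling noise (mean chi-square 18.3 to 79.8) and counted as separate libraries. On simulated counts of 14451 genes for PLDLS against PLASS, edgeR recovered 0% of 2-fold and 77% of 4-fold changes without the block and 83% and 100% with it, with 0 and 8 false calls. The counts were drawn with a replicate term for every gene and the spread of the fit with the block. Better recovery with the block was thus built in, and the simulation cannot decide between the 2 fits. Changes were placed only in genes of at least 5 CPM on average. Alternatives were DESeq2 1.42.0, limma-voom 3.58.1, other scalings and filters, a length offset, the compared groups alone, summed copies and each library left out.

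The members and gene lists were chosen with earlier results of these data known. All members, HSF1 and HSF2 are named, then of each list the genes past the threshold (at most 6 by p), and the 3 genes most correlated with HSPA1A, HSPA7 and HSP90AA1. 1 item that the rule names is not reported here.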

Additional observations from a re-analysis of the deposited data

How the results depend on the processing

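Of 1007 alternative values of the members' differences, 974 lay within 1 SD between replicates of the reported value and 33 beyond it, all 33 on leaving out 1 library, and 0 turned a called direction. Only the 4 members called in replicate 2 against 1 could count there, since 0 were called between groups in the first-choice edgeR fit without the block. Uncalled differences did change sign. HSPA1B in PLDLS against EV did so in 3 of 15 alternatives without the block and 6 of 15 with it. HSPA7 kept its sign in both PLDLS comparisons. The counts of called genes moved far more. With the replicate block, edgeR called 297 genes in PLDLS against PLASS, 618 in PLDLS against EV and 2 in PLASS against EV, in place of 0, 2 and 0 without it. In the same order, without the block, DESeq2 called 121, 267 and 3, no expression filter gave 241, 471 and 34, and in PLDLS against EV limma-voom called 5, upper-quartile scaling 0, the effective-length offset 0 and the compared groups alone 7. With the replicate block, DESeq2 gave 381, 710 and 24, limma-voom 328, 732 and 1, DESeq2 size factors 285, 601 and 2, upper-quartile scaling 283, 595 and 2, no expression filter 584, 1013 and 38, the effective-length offset 305, 672 and 2, the compared groups alone 1098, 838 and 11, and summed copies 297, 618 and 2. Leaving out 1 library gave 0 to 0, 0 to 13 and 0 to 0 without the block and 108 to 1077, 281 to 2157 and 13 to 571 with it, and 890 to 3072 in place of 2551 for replicate 2 against 1. The cause of these moves was not tested. The stricter filter was run without the block only. HSPA6 and HSPA1A rest on as few as 1.04 and 10.1 estimated reads, so their counting error is large.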
